A study of Mus musculus with 8 samples.

Results

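The 10 genes described here are those by which early blood progenitors commit to granulocytes and monocytes: the C/EBP transcription factor genes Cebpa, Cebpb, Cebpd and Cebpe, the factor genes Spi1 and Irf8, and the primary granule genes Mpo, Elane, Prtn3 and Ctsg. They were chosen by name, and all 10 were found among the 37991 gene rows of the count table. The RNA came from bone marrow of C57BL/6J mice, from the Flt3- LSK fraction (lineage-negative, Sca-1+, Kit+), where blood stem cells and the earliest progenitors are found. Mut-labelled samples are described in the labels as Runx1 deficient, and WT samples, called wild type there, carried floxed Runx1 (Runx1f/f) according to the design text. Runx1 encodes a transcription factor of blood development, and the labels used here name neither the recombinase nor the age of the mice. There were 2 Mut-labelled and 2 WT samples of 24000 sorted cells each, and by their names each gave an mRNA library (polyA-selected RNA) and a total RNA library, 8 libraries in all. The labels do not state whether replicates are different mice, so the p-values cover the variation among these samples alone, and that variation may be technical.

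In myelopoiesis C/EBPα and PU.1, the product of Spi1, are the factors that open the granulocyte-monocyte programme, IRF8 favours monocytes over granulocytes, and C/EBPε drives the later steps of granulocyte maturation. RUNX1 is known to bind an upstream enhancer of Spi1. Myeloperoxidase (Mpo) and the serine proteases neutrophil elastase (Elane), proteinase 3 (Prtn3) and cathepsin G (Ctsg) are packed into primary granules, which form first, and their transcripts are already present at the progenitor stage.

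Each mRNA library held between 35096252 and 37924699 gene counts, and each total RNA library between 967694 and 1218437. Levels are counts per 1000000 gene counts (CPM) after TMM scaling, in which 1 count stood for 0.0261 to 0.0286 CPM in an mRNA library and for 0.822 to 1.06 CPM in a total RNA library, and differences between genotypes are log2 ratios with Mut-labelled on top. Runx1 had 749 and 941 CPM in Mut-labelled mRNA libraries, against 200 and 207 CPM in WT (log2 fold change 2.05, edgeR adjusted p = 0.00753), a direction that goes against the label. Since the counts cover all of Runx1, they do not test for a deleted part, and every direction below rests on the labels. All 6 marker genes of the LSK fraction and its stem cells were present, with Kit at 953 and 1099 CPM in Mut-labelled and 890 and 883 CPM in WT mRNA libraries and Ly6a (Sca-1) at 32.4 and 26.0 CPM in Mut-labelled and 23.7 and 38.5 CPM in WT. Procr, a stem cell marker, was called lower in mRNA libraries (-2.13, edgeR adjusted p = 0.0309), and Cd48, which marks progenitors beyond the stem cell, was called higher in both kinds (1.996 and 2.56, edgeR adjusted p = 0.00451 and 3.43e-06). Slamf1, another stem cell marker, went the other way from Procr without a call. It had 21.3 and 22.7 CPM in Mut-labelled and 11.2 and 14.6 CPM in WT mRNA libraries (0.77, edgeR adjusted p = 0.159). In total RNA its difference was 0.73 (edgeR adjusted p = 0.528).

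The promoters of the primary granule genes are shown here. Levels of these genes varied together from sample to sample, and Irf8 varied with them (r = 0.94 with Mpo). A link between promoter letters and levels was not tested. Promoter windows from RefSeq (build GRCm38.p6, while the submitters' processing notes name mm9) were found for 7 of the 10 members. Each covers the 250 bases before the RefSeq start. GENCODE M21 places the first exon of these genes earlier for Mpo, Elane and Prtn3, so that 203, 65 and 53 bases of their windows are exonic there, and another Prtn3 model starts farther upstream, with the window in an intron of it. The bases before that exon are given 5′ to 3′ on the gene's own strand, with capitals marking AGGAAGT, a core of the motif that PU.1 and other ETS factors bind. The stretches are chr11:87793534-87793580 (plus strand) for Mpo, chr10:79886062-79886246 (plus strand) for Elane, chr10:79879417-79879613 (plus strand) for Prtn3 and chr14:56102575-56102824 (minus strand) for Ctsg.
Mpo: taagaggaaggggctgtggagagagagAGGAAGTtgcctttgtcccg
Elane: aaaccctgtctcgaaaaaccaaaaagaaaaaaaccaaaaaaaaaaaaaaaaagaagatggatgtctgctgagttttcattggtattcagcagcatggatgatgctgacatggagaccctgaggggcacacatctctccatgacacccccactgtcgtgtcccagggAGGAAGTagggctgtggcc
Prtn3: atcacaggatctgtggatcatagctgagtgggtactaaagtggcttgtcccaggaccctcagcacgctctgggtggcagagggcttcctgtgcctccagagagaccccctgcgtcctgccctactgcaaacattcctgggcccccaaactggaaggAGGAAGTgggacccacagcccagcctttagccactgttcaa
Ctsg: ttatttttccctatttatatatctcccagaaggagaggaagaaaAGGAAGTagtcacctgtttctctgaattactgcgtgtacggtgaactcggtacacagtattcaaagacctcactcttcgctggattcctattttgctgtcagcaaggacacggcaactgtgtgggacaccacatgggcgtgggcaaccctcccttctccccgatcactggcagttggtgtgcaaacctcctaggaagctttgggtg

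Each of these 4 windows held AGGAAGT once, on the gene's own strand. It lay 223 to 217 bases before the RefSeq start of Mpo, 84 to 78 before that of Elane, 94 to 88 before that of Prtn3 and 206 to 200 before that of Ctsg. Counted from the GENCODE exon it lay 20 to 14 bases before Mpo, 19 to 13 before Elane and 41 to 35 before Prtn3. Searched on both strands, the same letters were in 7.69% of the 32851 promoter windows of this length, and in none of those of Cebpa, Cebpb and Irf8. The letters were picked after these windows had been seen. The MYB core CAACGG was in the windows of Elane and Prtn3 and in 4.05% of all. The RUNX core, searched as TGTGGT or TGCGGT, was in the window of Ctsg and in 1 of 2 windows of Irf8, against 18.6% of all, and the C/EBP core TTGCNNAA was in no window of a member, against 9.56% of all. None of the matches in a granule gene window overlapped another.

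In the fit with no replicate block, none of the 10 genes passed the test between genotypes in either kind of library. Under edgeR's quasi-likelihood test with Benjamini-Hochberg adjustment over all genes, 0 of 10 tested members were called in the mRNA libraries at an adjusted p under 0.05, where 3.64% of all 17128 genes tested were called, 1.75% higher and 1.89% lower. In total RNA 0 of 9 tested members were called, where the background was 4.23% of 10546 genes, 2.55% higher and 1.68% lower. At an unadjusted p under 0.05 there were 3 members in the mRNA libraries and 0 in the total RNA libraries, against 15.7% and 14.8% of all genes. DESeq2 called Cebpd and Cebpe higher in the mRNA libraries, 2 of 10 members, where it called 9.43% of all genes, and 0 of 9 members in total RNA, where it called 1.89%. With replicate number as a block, edgeR called Cebpb, Cebpd and Cebpe higher and Elane lower in mRNA libraries. It called 2870 of 17128 genes there. The median change of the tested members was 0.08 in mRNA and 0.10 in total RNA libraries, beside medians of -0.01 and -0.0016 for all genes tested. In these bulk samples fewer cells of a type and less RNA per cell cannot be told apart.

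**Figure D1:**
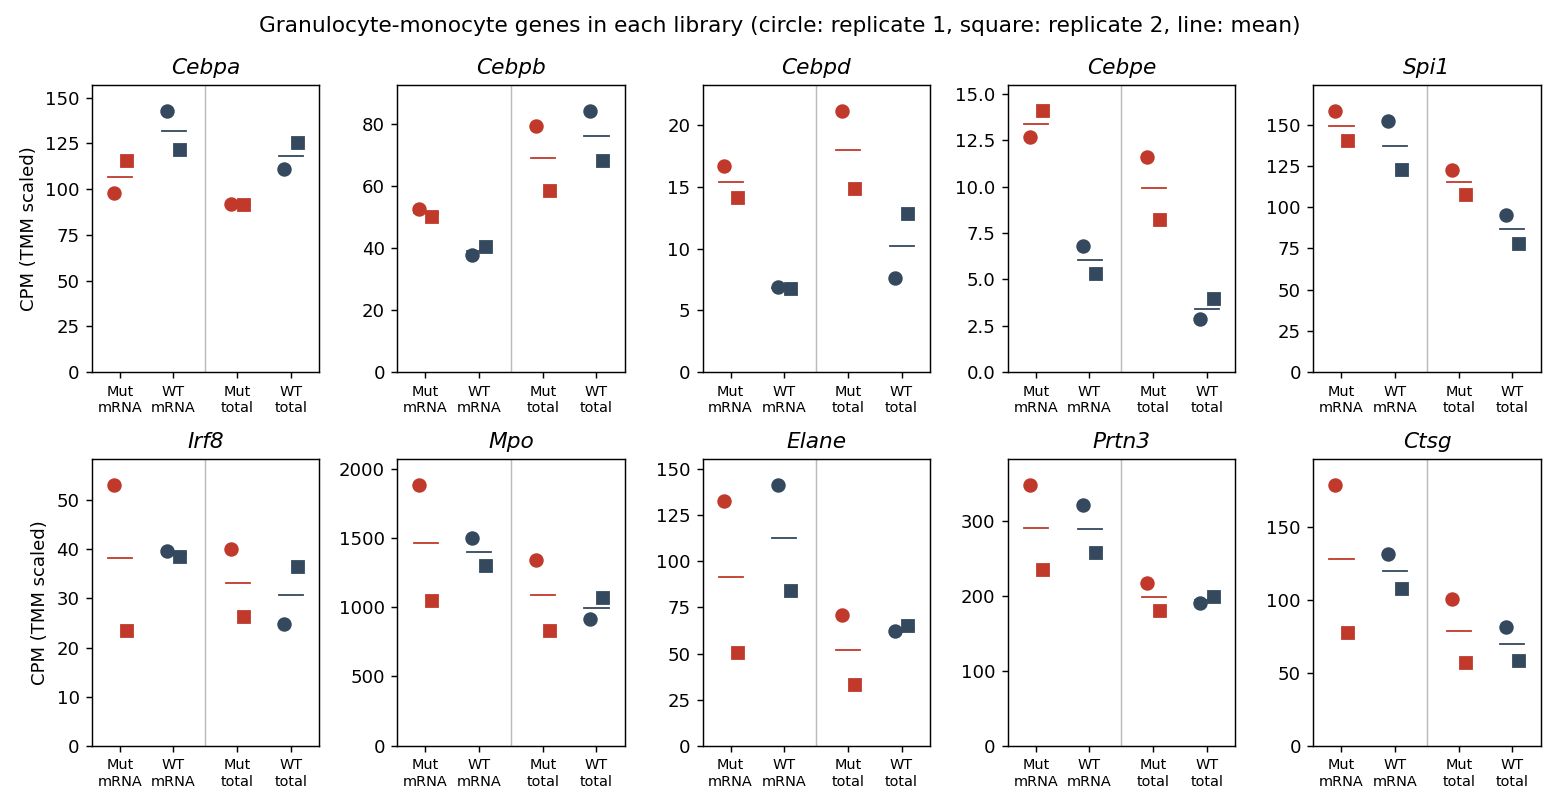
Level of each of the 10 genes in each of the 8 libraries, in CPM after TMM scaling on linear axes that start at 0, with Mut-labelled libraries in red and WT libraries in dark blue. Circles are replicate 1, squares replicate 2 and lines the group means; Cebpd and Cebpe lie higher in both Mut-labelled samples (the Cebpd difference in total RNA turns to -0.22 with ERCC scaling), while Irf8 and the granule genes lie apart within the Mut-labelled group in mRNA libraries and, except Prtn3, in total RNA libraries.

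Among the C/EBP genes the widest differences were those of the low-expressed Cebpd and Cebpe. Cebpe encodes the factor of late granulocyte maturation. It had 12.7 and 14.1 CPM in Mut-labelled mRNA libraries, against 6.82 and 5.28 CPM in WT. Both Mut-labelled values were above both WT values, a log2 difference of 1.14 (SE 0.26, 95% interval 0.49 to 1.80, edgeR adjusted p = 0.0905). Leaving out each of the 4 libraries in turn gave differences of 0.99 to 1.34. Summed markers of mature neutrophils, cells that follow the stage of Cebpe, were also higher in both Mut-labelled samples, at 579 and 180 CPM, against 44.7 and 54.9 CPM in WT, and their part in the Cebpe level was not tested. In total RNA Cebpe had 11 and 10 counts in Mut-labelled libraries and 3 and 4 counts in WT, too few for the filter on low counts. With no filter its difference there was 1.49 (SE 0.72, edgeR adjusted p = 0.38).

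Cebpd encodes a C/EBP factor induced by inflammatory signals. Its level was 16.7 and 14.1 CPM in Mut-labelled and 6.85 and 6.75 CPM in WT mRNA libraries, and the WT pair lay closer together than the Mut-labelled pair. The log2 difference was 1.18 (SE 0.24, 95% interval 0.59 to 1.77, edgeR adjusted p = 0.0653), and 1.05 to 1.30 when any library was left out. Total RNA libraries held 20 and 18 counts of Cebpd in Mut-labelled samples and 8 and 13 in WT, a log2 difference of 0.79 (SE 0.47, edgeR adjusted p = 0.478). The groups did not overlap there either, but with scaling by ERCC spike-in counts the total RNA value was -0.22.

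Cebpa, which encodes the factor needed to form granulocyte-monocyte progenitors, had 97.9 and 115 CPM in Mut-labelled mRNA libraries and 143 and 121 CPM in WT. Total RNA gave 91.9 and 91.2 CPM in Mut-labelled and 111 and 125 CPM in WT libraries. Mut-labelled values were below WT values in both kinds of library, with log2 differences of -0.31 (SE 0.15, edgeR adjusted p = 0.437) and -0.36 (SE 0.19, edgeR adjusted p = 0.40). The 95% intervals reached from -0.68 to 0.07 and from -0.76 to 0.03.

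Cebpb, the gene of a factor used in emergency granulopoiesis and in monocytes, lay apart between genotypes in mRNA libraries and overlapped in total RNA libraries. In mRNA it had 52.6 and 50.04 CPM in Mut-labelled samples and 37.6 and 40.2 CPM in WT, a log2 difference of 0.40 (SE 0.14, edgeR adjusted p = 0.235). In total RNA it had 79.2 and 58.3 CPM in Mut-labelled and 84.0 and 67.9 CPM in WT libraries, a difference of -0.16 (SE 0.23, edgeR adjusted p = 0.839). The dependence on library kind was itself tested, as total minus mRNA, and was -0.51 (SE 0.27, unadjusted p = 0.0848, edgeR adjusted p = 0.9999).

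Spi1 encodes PU.1, an ETS factor of all myeloid and of B cells. Its level was 158 and 140 CPM in Mut-labelled mRNA libraries, against 153 and 122 CPM in WT, and the groups overlapped. Total RNA gave 123 and 108 CPM in Mut-labelled and 95.5 and 77.8 CPM in WT libraries, without overlap. The log2 differences were 0.12 (SE 0.16, 95% interval -0.27 to 0.51, edgeR adjusted p = 0.834) and 0.40 (SE 0.20, -0.01 to 0.82, edgeR adjusted p = 0.351).

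Irf8 encodes the interferon regulatory factor that steers progenitors to monocytes and dendritic cells. It had 53.1 and 23.4 CPM in Mut-labelled mRNA libraries, around the 39.7 and 38.5 CPM of WT. The mean difference of -0.03 (SE 0.37, edgeR adjusted p = 0.987) therefore joined a Mut-labelled sample above WT and another below it: it was 0.45 without Mut-labelled replicate 2 and -0.74 without Mut-labelled replicate 1. Total RNA gave 40.2 and 26.3 CPM in Mut-labelled and 24.8 and 36.4 CPM in WT libraries.

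Counting over the members, groups did not overlap for 4 of 10 genes in mRNA libraries, where 44.6% of all genes tested did not overlap, and for 3 of the 9 tested members in total RNA libraries, where the background was 44%. Cebpe, not tested in total RNA, did not overlap there either. Cebpa, Cebpd and Cebpe, 3 of 10, were apart in the same direction in both kinds, against 17.3% of the genes tested in mRNA libraries. These shares are near the background in each kind, and by their names both kinds come from the same sorted samples.

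**Figure D2:**
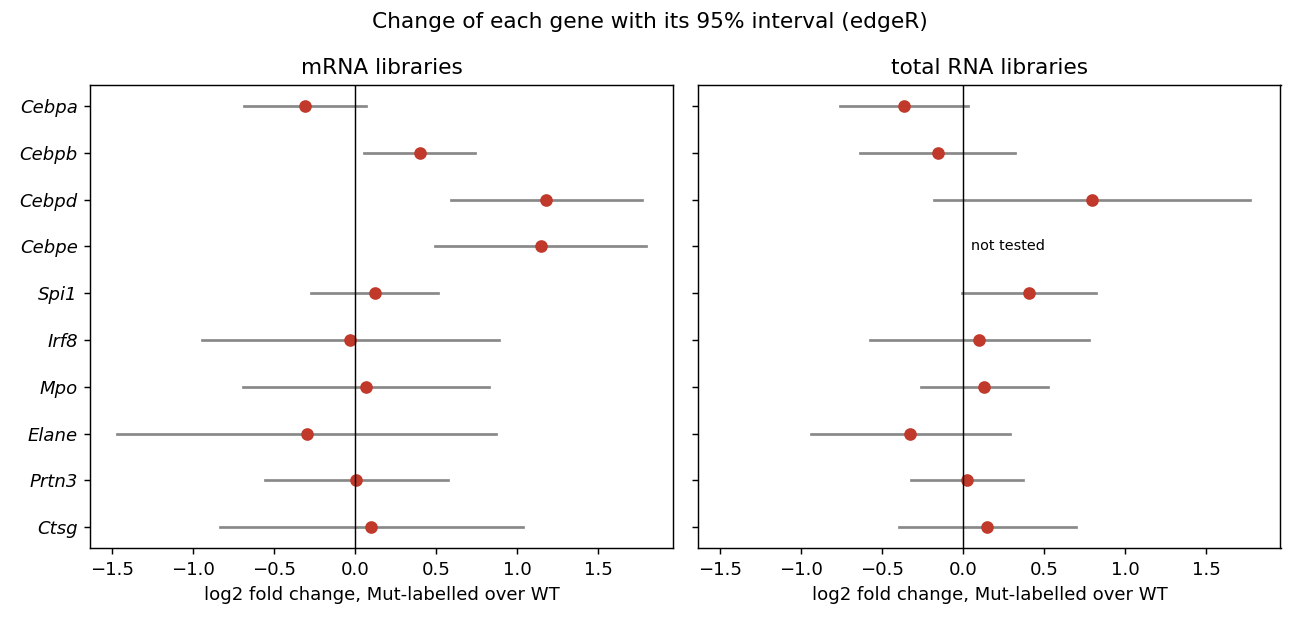
Log2 fold change of Mut-labelled over WT for each gene (points) with its 95% interval from edgeR (bars), for mRNA libraries on the left and total RNA libraries on the right. The intervals of Cebpb, Cebpd and Cebpe lie above 0 in mRNA libraries, before adjustment over all genes, and Cebpe was not tested in total RNA.

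The primary granule genes differed more between the Mut-labelled samples than between the means of the genotypes. Mpo had 1884 and 1043 CPM in Mut-labelled mRNA libraries, against 1497 and 1296 CPM in WT. Replicate 1 stood above and replicate 2 below both WT values, and the log2 difference between genotypes was 0.07 (SE 0.31, 95% interval -0.69 to 0.83, edgeR adjusted p = 0.962). Total RNA showed the same order, with 1343 and 829 CPM in Mut-labelled and 917 and 1067 CPM in WT libraries, a difference of 0.13 (SE 0.19, edgeR adjusted p = 0.836).

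Ctsg, the cathepsin G gene, followed with 179 and 77.2 CPM in Mut-labelled and 132 and 107 CPM in WT mRNA libraries, a difference of 0.10 (SE 0.38, edgeR adjusted p = 0.953). In total RNA it had 100.4 and 56.7 CPM in Mut-labelled and 81.2 and 58.1 CPM in WT libraries. Here too replicate 1 lay above and replicate 2 below the WT pair. Prtn3 had the smallest difference of the 10 genes in mRNA libraries: 348 and 234 CPM in Mut-labelled and 321 and 257 CPM in WT, a log2 value of 0.01 (SE 0.23, 95% interval -0.56 to 0.58, edgeR adjusted p = 0.995). Its total RNA levels were 218 and 180 CPM in Mut-labelled and 191 and 199 CPM in WT libraries. Elane was the most variable granule gene in mRNA libraries, with 133 and 50.3 CPM in Mut-labelled and 141 and 83.6 CPM in WT, a difference of -0.30 (SE 0.47, 95% interval -1.47 to 0.87, edgeR adjusted p = 0.871). Total RNA gave 70.8 and 32.9 CPM in Mut-labelled and 62.1 and 65.0 CPM in WT libraries for Elane. Its Mut-labelled replicate 2 was the lowest of the 4 libraries of each kind.

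The sign of each granule gene's difference in mRNA libraries followed which Mut-labelled sample was kept. Without Mut-labelled replicate 1 the log2 differences were -0.42 for Mpo, -1.16 for Elane, -0.31 for Prtn3 and -0.63 for Ctsg. Without Mut-labelled replicate 2 they were 0.44, 0.25, 0.27 and 0.59 in the same order of genes. WT samples mattered as well: Elane turned to 0.13 without WT replicate 1, and Mpo, Prtn3 and Ctsg to -0.02, -0.13 and -0.03 without WT replicate 2. None of the 8 values without a Mut-labelled sample passed, with edgeR adjusted p between 0.0929 for Elane without Mut-labelled replicate 1 and 0.794 for Elane without Mut-labelled replicate 2.

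The gap between the replicates was measured as the log2 ratio of replicate 1 to replicate 2. For Irf8 and the granule genes it was positive in the Mut-labelled samples in both kinds of library, at 1.18 and 0.61 for Irf8, 0.85 and 0.70 for Mpo, 1.40 and 1.0995 for Elane, 0.57 and 0.27 for Prtn3, and 1.21 and 0.82 for Ctsg, in mRNA and total RNA libraries in that order. The median size of this gap over all genes tested was 0.31 in mRNA and 0.26 in total RNA libraries. In the mRNA libraries the gaps of Elane and Ctsg were larger than those of 90.2% and 88.3% of all genes tested. Cebpa and Spi1 had gaps of -0.24 and 0.17 there, inside the median. In total RNA the Mut-labelled gaps of Cebpb, Cebpd and Cebpe were 0.44, 0.51 and 0.49, beyond the median and wider than that of Prtn3. Irf8 also had a WT gap of -0.54 in total RNA, larger than those of 78.2% of all genes tested. WT replicates differed by 0.21 for Mpo and 0.76 for Elane in mRNA libraries, but by -0.22 and -0.07 in total RNA, so their WT gaps had opposite signs in the 2 kinds of library, while that of Ctsg was positive in both.

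**Figure D3:**
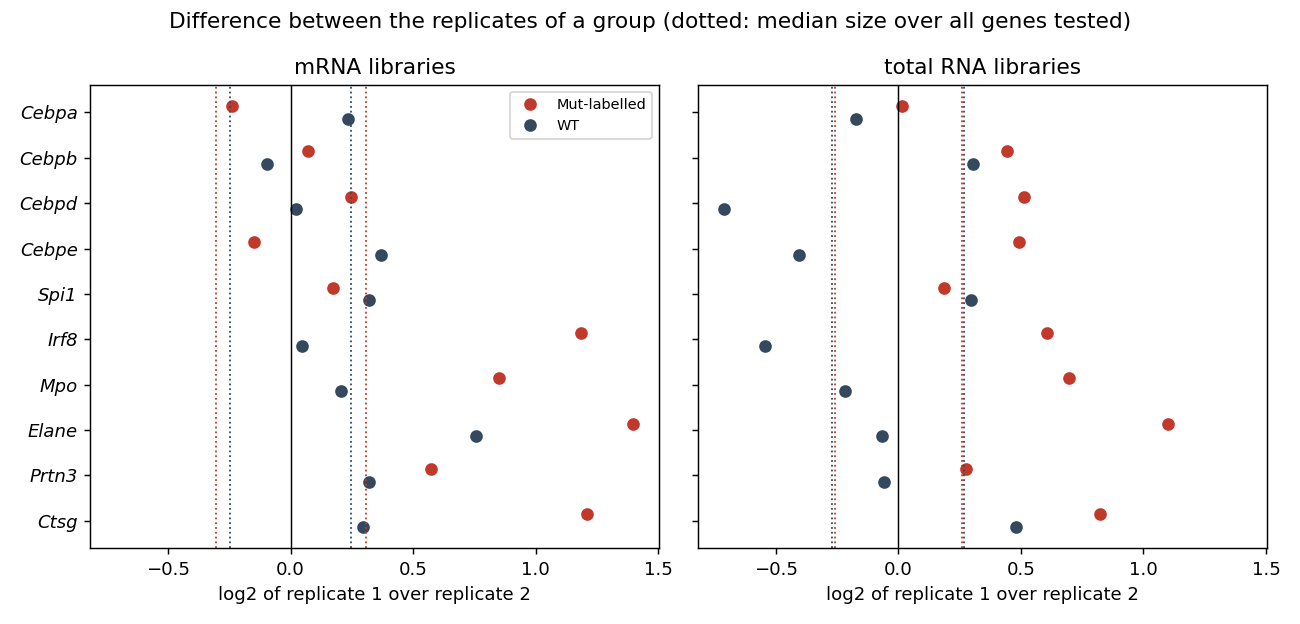
Log2 ratio of replicate 1 to replicate 2 within the Mut-labelled (red) and WT (dark blue) groups for each gene, with dotted lines at plus and minus the median size of that ratio over all genes tested. Irf8, Mpo, Elane and Ctsg lie to the right of the red dotted line in both kinds of library, and Prtn3 lies at 0.57 in mRNA and 0.27 in total RNA libraries. Cebpb, Cebpd and Cebpe lie to the right of it in total RNA libraries only.

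The 4 granule genes summed to 2543 and 1404 CPM in Mut-labelled mRNA libraries and to 2091 and 1745 CPM in WT. In total RNA the sum was 1732 and 1099 CPM in Mut-labelled and 1251 and 1389 CPM in WT libraries. Mpo took 74.1% and 74.3% of these counts in Mut-labelled mRNA libraries and 71.6% and 74.3% in WT. Elane varied more, with 70.4 and 48.2 counts per 1000 Mpo counts in Mut-labelled and 94.5 and 64.5 in WT mRNA libraries. Over the 8 libraries, with log2 CPM centred within each kind, Mpo correlated with Irf8 at r = 0.94 and with Prtn3 at 0.93, and Cebpa with Cebpd at -0.73. By the sample names these 8 points are 4 samples measured in 2 kinds of library, and the values are descriptions. By the same measure the genes most like Mpo among 10508 were Rpa1 (0.99), Hmgb2 (0.99), Ly6e (0.98), Dph6 (0.97) and Hist1h4j (0.96), and those most like Spi1 were Lrrc47 (0.98), Alas1 (0.97), Ube2j2 (0.97), Dpm2 (0.96) and Nup107 (0.96).

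Markers of mature neutrophils differed in the same samples, in a sort that selects lineage-negative cells. Over all genes tested, edgeR called 3.64% in mRNA and 4.23% in total RNA libraries. At an unadjusted p under 0.05 the shares were 15.7% and 14.8%. All 12 tested of 13 neutrophil markers were positive in mRNA libraries, with a median of 2.85, and 2 were called, Retnlg and Cxcr2. In total RNA all 6 tested were called higher, with a median of 2.87. These 6 passed the filter on low counts through the Mut-labelled libraries, so a lower value could hardly have been found among them. Cxcr2 had 30 and 31 counts in Mut-labelled and 3 and 3 in WT total RNA libraries. Ngp, at 25 and 9 counts in Mut-labelled and 9 and 7 in WT, overlapped there and was not tested. The neutrophil list was chosen with such results already known. Its summed level was 579 and 180 CPM in Mut-labelled mRNA libraries and 44.7 and 54.9 CPM in WT. Total RNA libraries gave 307 and 127 CPM for Mut-labelled and 31.5 and 33.5 CPM for WT. Ly6g, a defining surface marker of neutrophils, was at 0.86 and 0.14 CPM in Mut-labelled and 0.24 and 0 CPM in WT mRNA libraries. The ratio of Mut-labelled replicate 1 to replicate 2 was 3.21 for this list, 1.81 for the granule sum and 0.901 for Cebpe in mRNA libraries, and 2.41, 1.58 and 1.41 in total RNA. Monocyte and macrophage markers summed to 334 and 166 CPM in Mut-labelled and 162 and 152 CPM in WT mRNA libraries. Of the 12 markers 0 were called there by edgeR (7 at an unadjusted p under 0.05), 5 were positive and 7 negative, and the median was -0.59. Csf1r, Cd14, Fn1 and F13a1 lay higher in both Mut-labelled libraries, F13a1 at 143 and 36.9 CPM in Mut-labelled and 24.3 and 35.2 CPM in WT, and the macrophage genes C1qa, C1qb and C1qc and the monocyte gene Cx3cr1 lay lower. In total RNA F13a1 was called higher, the 1 call among 5 tested markers, of which 3 were positive and 2 negative. Cd14 and Fn1 were the negative ones there, at -0.67 and -0.14, with overlap and with WT replicate 1 the highest. C1qa, C1qb and C1qc held 1 to 5 counts in each total RNA library. The part of such cells in the levels of the members was not tested. B and plasma cell markers summed to 391 and 2069 CPM in Mut-labelled and 827 and 9383 CPM in WT mRNA libraries, mostly Igkc and Jchain, and 0 of 6 were called by edgeR (0 at an unadjusted p under 0.05). The B cell gene Ms4a1 was almost absent from either genotype. The mRNA library of WT replicate 1 held 5 counts of it, and every other library of either kind held 0. Basophil and mast cell markers summed to 549 and 692 CPM in Mut-labelled and 156 and 111 CPM in WT mRNA libraries. Most of the Mut-labelled sum was Cpa3, at 455 and 513 CPM against 28.7 and 19.4 CPM in WT. The 7 markers were split, 3 positive and 4 negative, with a median of -3.22. Cpa3 and Hdc were called higher and Mcpt8 and Prss34 lower, Prss34 at 0.029 and 0 CPM in Mut-labelled and 68.8 and 44.3 CPM in WT.

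Ratios between factors within a library do not depend on scaling. Irf8 counts per Cebpe count were 4.19 and 1.66 in Mut-labelled mRNA libraries and 5.82 and 7.28 in WT, and 3.45 and 3.2 in Mut-labelled and 8.67 and 9.25 in WT total RNA libraries. Mut-labelled values were lower in both kinds. Spi1 counts per Cebpa count were 1.62 and 1.22 in Mut-labelled and 1.07 and 1.01 in WT mRNA libraries, and 1.33 and 1.18 in Mut-labelled and 0.862 and 0.622 in WT total RNA libraries, again without overlap. Cebpb counts per Cebpa count were 0.537 and 0.434 in Mut-labelled and 0.264 and 0.331 in WT mRNA libraries, while they overlapped in total RNA, at 0.862 and 0.64 in Mut-labelled and 0.759 and 0.543 in WT. No test was made on these ratios, and the Cebpe counts of total RNA libraries were 11 or fewer. Of single genes tested, 44.6% in mRNA and 44% in total RNA libraries did not overlap between groups. In both kinds and the same direction it was 17.3% of the genes tested in mRNA libraries. No such share was made for ratios.

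**Figure D4:**
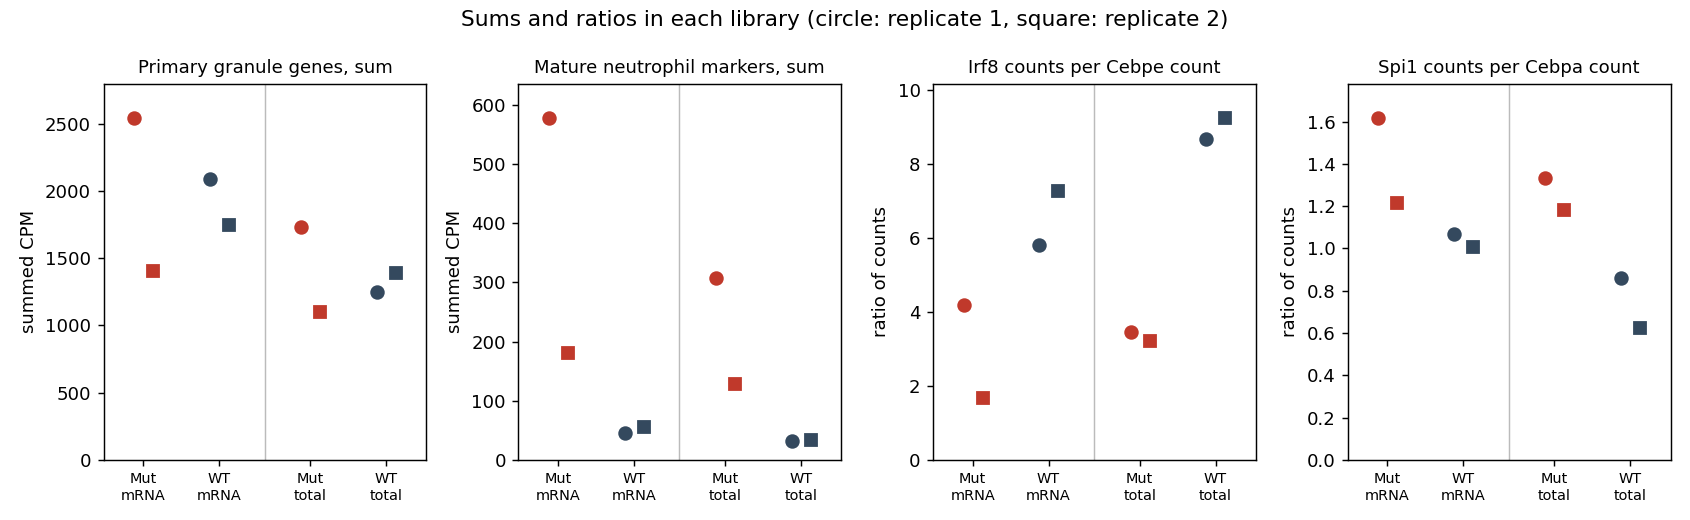
From left to right, the summed CPM of Mpo, Elane, Prtn3 and Ctsg, the summed CPM of 13 mature neutrophil markers, Irf8 counts per Cebpe count and Spi1 counts per Cebpa count in each library (Mut-labelled in red, WT in dark blue; circle replicate 1, square replicate 2; axes start at 0). The granule sum overlaps between genotypes, while the other 3 measures do not. Of single genes tested, 44.6% in mRNA and 44% in total RNA libraries do not overlap either.

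Between genes, levels were compared per kilobase of merged exons in GENCODE M21, an annotation that need not match the one the counts were made with. By WT mRNA libraries the order was Mpo (437 and 379 CPM per kilobase), Prtn3 (185 and 149), Ctsg (127 and 104), Elane (144 and 85.0), Spi1 (56.6 and 45.4), Cebpa (54.1 and 46.0), Cebpb (25.0 and 26.7), Irf8 (5.63 and 5.45), Cebpe (5.50 and 4.26) and Cebpd (1.83 and 1.80). Ctsg and Elane, Spi1 and Cebpa, and Irf8 and Cebpe did not differ beyond their spread. In Mut-labelled mRNA libraries Cebpe, at 10.2 and 11.4 CPM per kilobase, stood above Irf8, at 7.53 and 3.31.

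The dependence of the genotype difference on library kind passed for no member, with edgeR calling 0 of 17416 genes, or 0% (3.94% at an unadjusted p under 0.05, with no member among them, and 12 genes called by DESeq2). With the sample as a block 111 genes were called, again no member. The differences of the members, total minus mRNA, ranged from -0.51 for Cebpb to 0.43 for Cebpe.

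Some other genes of the programme were called, from lists chosen with earlier results known. Over all genes tested 3.64% were called in mRNA and 4.23% in total RNA libraries, with medians of -0.01 and -0.0016. Of 18 other transcription factor genes of granulocyte-monocyte progenitors, 17 were tested in mRNA libraries and 1 was called higher and 0 lower, with a median of 0.14, while 2 of 14 were called higher and 0 lower in total RNA libraries, with a median of 0.10. Rara, the retinoic acid receptor gene of granulocyte maturation, rose to 42.6 and 43.4 CPM in Mut-labelled mRNA libraries, against 24.7 and 23.9 CPM in WT (log2 fold change 0.82, SE 0.15, edgeR adjusted p = 0.04998, lost at 0.103 to 0.172 when any library was left out). Zeb2, a repressor gene of monocyte and dendritic cell development, rose in total RNA to 244 and 276 CPM in Mut-labelled libraries, against 152 and 167 CPM in WT (0.71, SE 0.16, edgeR adjusted p = 0.0133, but 0.137 when Mut-labelled replicate 2 was left out, 0.0634 when WT replicate 1 was and 0.0939 with DESeq2), and in mRNA its difference was 0.67 (edgeR adjusted p = 0.0595). Jun, an AP-1 factor gene, rose in total RNA to 887 and 903 CPM in Mut-labelled libraries, against 302 and 534 CPM in WT (1.098, edgeR adjusted p = 0.0021), with 1.15 in mRNA (edgeR adjusted p = 0.103). The total RNA call of Jun was lost with DESeq2 (adjusted p = 0.201), with all 8 libraries in 1 fit (edgeR adjusted p = 0.0913) and with ERCC scaling (0.07, edgeR adjusted p = 0.915). The 3 most abundant factor genes not called, Myb, Gata2 and Egr1, had differences of -0.01, 0.14 and -0.05 in mRNA libraries, with edgeR adjusted p from 0.84 to 0.995.

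Of 26 other progenitor genes, all tested in mRNA libraries, 3 were called higher and 1 lower, with a median of 0.24, and of 18 tested in total RNA 3 were called higher and 1 lower, with a median of 0.34. Over all genes the shares called were 3.64% and 4.23%, with medians of -0.01 and -0.0016. Cst7, which encodes cystatin F, an inhibitor of the cathepsin that activates granule proteases, rose 5.09-fold to 91.3 and 80.6 CPM in Mut-labelled mRNA libraries, against 19.6 and 14.2 CPM in WT (log2 fold change 2.35, SE 0.20, edgeR adjusted p = 0.00752), and by 2.18 in total RNA (edgeR adjusted p = 2.83e-04). Ctsc, the gene of that cathepsin, had 71.8 and 48.6 CPM in Mut-labelled and 63.6 and 58.4 CPM in WT mRNA libraries and is named for this link. The cytokine receptor genes Csf2rb and Csf3r rose in both kinds of library, in total RNA by 1.84 (edgeR adjusted p = 1.07e-05) and 0.90 (edgeR adjusted p = 0.00214), although in mRNA libraries Csf3r lost its call at an adjusted p of 0.0616 to 0.165 without Mut-labelled replicate 2, WT replicate 1 or WT replicate 2. Nkg7, which encodes a granule membrane protein of cytotoxic cells, fell to 23.4 and 22.8 CPM in Mut-labelled mRNA libraries, against 65.5 and 52.9 CPM in WT (-1.36, edgeR adjusted p = 0.018). Anxa3, an annexin gene of neutrophils, was called lower in total RNA, at 96.2 and 94.5 CPM in Mut-labelled and 205 and 124 CPM in WT libraries (-0.79, edgeR adjusted p = 0.0403). Its value was -0.38 when WT replicate 1 was left out (edgeR adjusted p = 0.598), and its call was also lost without Mut-labelled replicate 2 (0.0625), with DESeq2 (0.234) and with all 8 libraries in 1 fit (0.194). The 3 most abundant progenitor genes not called in mRNA libraries, Srgn, Plac8 and Lyz2, had differences of 0.41, 0.01 and 0.34 there. Srgn, which encodes the proteoglycan that holds granule proteases, had 730 and 636 CPM in Mut-labelled and 566 and 463 CPM in WT mRNA libraries (edgeR adjusted p = 0.358).

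Several members share positions with another annotated gene in GENCODE M21, and reads there are uncertain: Cebpb with Tmem189, Cebpd with Spidr, Mpo with Gm11505, Prtn3 with Plppr3, Cebpa with Gm45091 and Irf8 with Gm20388. All but the last lie on opposite strands. The use of strand in counting is not given in the sources used here, so reads of such partners may not be told apart. Spidr, the partner of Cebpd, had a difference of -0.19 in mRNA libraries (edgeR adjusted p = 0.669) while Cebpd stood at 1.18, and Plppr3, the partner of Prtn3, had 0.03 (edgeR adjusted p = 0.977).

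Scaling by ERCC spike-in counts moved the median change of all genes to -0.38 in mRNA and -1.10 in total RNA libraries. Under it Cebpd and Cebpe still had positive values in mRNA libraries, at 0.76 and 0.87, while Cebpb, Spi1, Mpo, Prtn3 and Ctsg turned negative there and all 9 tested members were negative in total RNA. No member was called in either kind under that scaling. Of the other genes of the programme 0 were called higher under it, with Cst7 at 2.02 in mRNA and 1.0998 in total RNA and Csf2rb at 1.28 and 0.77, and Zeb2, Rara and Csf3r had values of -0.40, -0.66 and -0.20 in total RNA.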

How the data were processed

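Flt3- LSK bone marrow cells were sorted and RNA was taken with ERCC spike-in RNA added. Libraries were made from polyA-selected RNA and from total RNA, per the labels' protocols. The deposited table holds raw counts per gene for the 8 libraries, made by the authors, and its 38086 rows include 92 ERCC and 3 rRNA rows, which were kept out of library sizes and tests. TopHat, featureCounts, edgeR and build mm9 are named, without versions or roles, per the submitters' processing notes. rRNA took 93.3% to 94.5% of the counts in total RNA libraries, so those libraries are shallow for genes.

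Ensembl identifiers were matched to GENCODE M21 symbols (32919 matched, 5072 not). Each kind of library was fitted alone in edgeR 4.0.16 (R 4.3.3): filterByExpr, TMM scaling, quasi-likelihood test of Mut-labelled against WT, Benjamini-Hochberg adjustment over all genes tested, threshold 0.05, no replicate block, and t intervals at 95%. Dependence on library kind was an interaction over the 8 libraries. The code was checked on simulated counts. DESeq2 1.42.0, RLE and ERCC scaling, no filter, 1 fit over all libraries, replicate blocks and each library left out were the alternatives. Same-group libraries differed by more than counting noise (chi-square per degree of freedom 2.60 to 65.1).

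The members and gene lists were chosen with earlier results of these data known. All members, every called gene of the other granulocyte-monocyte lists, the 3 most abundant uncalled genes of each in mRNA libraries, and the 5 genes most like Mpo and Spi1 (log2 CPM, prior count 2) are named. The 95% intervals of log2 differences come from the edgeR fit and include its estimate of the spread between replicates.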

Additional observations from a re-analysis of the deposited data

Results flagged for a closer look

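Anxa3, an annexin gene of the granulocyte-monocyte progenitor list, differed between genotypes in opposite directions in the 2 kinds of library. It was picked for that pattern, so its p-values for the dependence on library kind come from the values that chose it. It had 96.1 and 77.3 CPM in Mut-labelled mRNA libraries, against 59.2 and 57.2 CPM in WT. Its total RNA levels were 96.2 and 94.5 CPM in Mut-labelled libraries, against 205 and 124 CPM in WT. The difference of the log2 changes, total minus mRNA, was -1.32 (SE 0.31, unadjusted p = 0.00128), which did not pass adjustment over all genes (edgeR adjusted p = 0.9999) but did with the sample as a block (edgeR adjusted p = 1.17e-06). Both samples of each group showed its direction in each kind of library. Without WT replicate 1 the total RNA difference was -0.38 (edgeR adjusted p = 0.598), against -0.79 with it. Id2, an inhibitor gene of basic helix-loop-helix factors named after its values were seen, also passed with the sample as a block (-1.37, edgeR adjusted p = 0.00172) and not without it (-1.41, edgeR adjusted p = 0.9999). It had 54.9 and 26.3 CPM in Mut-labelled and 107 and 42.3 CPM in WT total RNA libraries, where WT replicate 1 was the highest, and 38.6 and 27.8 CPM in Mut-labelled and 23.8 and 21.5 CPM in WT mRNA libraries.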

How the results depend on the processing

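With ERCC scaling the log2 difference became, in mRNA libraries, Cebpb -0.0041, Spi1 -0.23, Mpo -0.44, Prtn3 -0.42, Ctsg -0.47, Gata2 -0.15, Lyz2 -0.21 and Plac8 -0.42, and in total RNA libraries Cebpd -0.22, Spi1 -0.68, Irf8 -0.89, Mpo -0.85, Prtn3 -1.02, Ctsg -0.86, Egr1 -0.72, Zeb2 -0.40, Gata2 -0.97, Rara -0.66, Srgn -0.63, Lyz2 -0.57, Plac8 -1.05 and Csf3r -0.20. The same scaling gave a dependence on library kind of Cebpe -0.36, Spi1 -0.44, Irf8 -0.24, Mpo -0.41, Elane -0.44, Prtn3 -0.59 and Ctsg -0.39, called 170 genes in mRNA libraries, and put the summed granule genes at -1.06 in total RNA, against 0.07. ERCC scaling moves all genes of a library by the same factor. The median change over all genes tested was -0.38 in mRNA and -1.10 in total RNA libraries under it, against -0.01 and -0.0016. For the dependence on library kind that median was -0.73, so the sign changes listed are not particular to these genes. Why ERCC counts differed between libraries was not tested.

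Replicate 1 deviations from the group mean correlated between Mut-labelled and WT samples, at r = 0.32 in mRNA and 0.22 in total RNA libraries. ERCC counts of replicates 1 and 2 were 312754 and 142196 in Mut-labelled and 243670 and 118723 in WT mRNA libraries. In total RNA they were 7471 and 16620 in Mut-labelled and 4293 and 5649 in WT libraries. Whether same-numbered samples share a batch was not tested, and the fit used above has no block. With the replicate block, Cebpb, Cebpd and Cebpe were called higher and Elane lower in mRNA libraries, 3 and 1 members (edgeR adjusted p 0.032, 0.00223, 0.00491 and 0.0338), with 2870 of 17128 genes called there and 870 of 10546 in total RNA. Under the block the sign changed for Prtn3 -0.011, Ctsg -0.011, Egr1 0.054 and Plac8 -0.0084 in mRNA libraries. With the block 4 other transcription factor genes were called higher and 2 lower in mRNA, 1 lower in total RNA, and 7 progenitor genes higher and 4 lower in mRNA, 5 higher and 2 lower in total RNA. For the dependence on library kind, the block by sample name called 111 genes.

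DESeq2 called 2 members higher in mRNA libraries, with 1615 genes there, 199 in total RNA and 12 for the dependence on library kind. It called 3 other factor genes higher, 6 progenitor genes higher and 3 lower in mRNA libraries, and 0 factor genes higher and 0 progenitor genes lower in total RNA. Elane's dependence on library kind was -0.0088 by DESeq2 and -0.029 with RLE size factors. With all 8 libraries in 1 fit, 3 factor genes were called higher and 2 progenitor genes lower in mRNA, and 273 genes, 1 factor gene higher and 0 progenitor genes lower in total RNA, where Myb was 0.035. With no filter on low counts 724 genes were called in total RNA, 1 factor gene and 2 progenitor genes lower. ERCC scaling called 0 factor and 0 progenitor genes higher in either kind, 0 progenitor genes lower in mRNA, and 1 factor and 2 progenitor genes lower in total RNA.

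Leaving out each library in turn, values ranged as follows where a sign changed. In mRNA libraries they were Spi1 -0.016 to 0.29, Irf8 -0.74 to 0.45, Mpo -0.42 to 0.44, Elane -1.16 to 0.25, Prtn3 -0.31 to 0.27, Ctsg -0.63 to 0.59, Egr1 -0.60 to 0.86, Myb -0.19 to 0.16, Gata2 -0.084 to 0.34, Lyz2 -0.31 to 0.79 and Plac8 -0.38 to 0.33. Total RNA gave Cebpb -0.37 to 0.058, Irf8 -0.21 to 0.40, Mpo -0.25 to 0.44, Elane -0.94 to 0.15, Prtn3 -0.11 to 0.16, Ctsg -0.29 to 0.52, Egr1 -0.15 to 1.23, Myb -0.18 to 0.15, Gata2 -0.034 to 0.35 and Plac8 -0.17 to 0.27, and the dependence on library kind gave Cebpa -0.21 to 0.10, Cebpd -0.66 to 0.0078, Irf8 -0.092 to 0.57, Mpo -0.10 to 0.23, Elane -0.43 to 0.29, Prtn3 -0.15 to 0.24 and Ctsg -0.094 to 0.38. Counts called ranged, in mRNA, over transcription factors called higher 0 to 1 and progenitor genes called lower 1 to 3, in total RNA over transcription factors called higher 1 to 3 and transcription factors called lower 0 to 1, and for the dependence over all genes called 0 to 1.

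Of 560 alternatives for single genes, 427 kept direction and side of the threshold, 84 changed sign, 25 gained and 24 lost a call. Total RNA libraries hold few counts of the factor genes, 3 to 131 for Cebpd, Cebpe, Irf8, Cebpb and Spi1, which limits what they can show. A library left alone in its group was assumed to vary like the other group.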
